A study of Mus musculus with 5 samples.

Results

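The genes described here encode the activin beta subunits (Inhba and Inhbb), the follistatin family proteins Fst, Fstl1 and Fstl3, and the activin receptors Acvr1b, Acvr2a and Acvr2b. They were taken by symbol, with no cut on their measured values but with earlier results of these data known. They are 8 of the 28001 features counted in each unsorted library. All 8 were found in the 4 libraries of unsorted skin, and their levels are given across 20 groups of cells and between genotypes.

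Activins are secreted dimers of the transforming growth factor beta superfamily. A dimer of Inhba chains is activin A, a dimer of Inhbb chains is activin B, and pairing of either chain with the alpha subunit Inha gives an inhibin. The ligand binds a type II receptor (Acvr2a or Acvr2b), which recruits and phosphorylates the type I receptor Acvr1b, and the signal passes to Smad2, Smad3 and Smad4. Follistatin (Fst) and Fstl3 bind activins outside the cell and keep them from their receptors, whereas Fstl1 is a more distant secreted relative that carries a follistatin-like domain. In skin this pathway is known for its part in hair follicle development and in wound repair. The dermal papilla is the cluster of specialised fibroblasts at the base of the hair follicle that signals to the follicle epithelium.

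Whole dorsal skin of female mice at postnatal day 46 was dissociated without sorting and captured with 10x Genomics version 3 chemistry, which tags transcripts near their 3′ ends. The 2 control libraries carried Lepr-Cre, which drives a recombinase from the locus of the leptin receptor. They also carried mTmG, a reporter at Rosa26 in which tomato gives way to GFP once the recombinase has acted. The 2 mutant libraries carried the same alleles and a changed Smo gene, written Smo+/- in the labels. Smo encodes Smoothened, the transducer of Hedgehog signalling. The labels name the control with and without the word Smo and do not describe the altered allele, so control and mutant below mean the libraries so labelled. Smo itself was at 32.2 and 35.9 CPM in control and 42.8 and 40.6 CPM in mutant papilla-like cells (defined below), so its level was not lower in the mutant, and a 3′ tag does not show which allele a transcript came from. UMIs of the YFP feature numbered 0 in control and 528 and 573 in mutant papilla-like cells. In fibroblast-like cells they numbered 0 in control and 429 and 389 in mutant libraries. Gli1, a target gene of Hedgehog signalling, was at 17.2 and 18.1 CPM in control and 66.4 and 64.6 CPM in mutant papilla-like cells. In fibroblast-like cells Gli1 was at 27.7 and 27.6 CPM in control and 53.0 and 51.2 CPM in mutant libraries. In these units (CPM) a level is the number of UMIs (unique molecular identifiers, each standing for 1 captured transcript) per 1e6 UMIs of the group in a library. As a model, Lepr-Cre acts in cells in which the leptin receptor locus has been active and in their descendants, and not in the whole skin. Per the labels, the pairs of libraries are technical replicates. P-values therefore measure the spread between library preparations, which may be technical, and not that between animals.

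The matrices held 10748 to 11816 cell barcodes and 147245343 to 171197845 UMIs per library. After filters on genes per cell, mitochondrial UMIs and doublets, 8102 and 8241 control cells and 8384 and 8673 mutant cells remained, with median depths of 8323 to 9756 UMIs. Any 2 libraries shared 117 to 192 barcodes, at most 1.73% of the smaller library. Clustering without the 8 genes gave 41 clusters. Of these cells, 99.4% fell into 20 groups with at least 20 cells in every library, 14 named from marker lists with the ending "-like" and 6 left as numbered clusters. Since all groups come from the same cells and libraries, differences in level between groups are given as descriptions and were not tested. Levels are compared between groups, not between genes.

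Papilla-like cells numbered 486 and 524 in control libraries and 1262 and 1258 in mutant libraries. They consisted of cluster 6, led by Notum (328 and 348 control, 369 and 332 mutant cells), cluster 9, led by Stc1 (158 and 174 control, 460 and 452 mutant cells), and cluster 16, led by Hhip and Wif1 (0 and 2 control, 433 and 474 mutant cells). Of the 14 papilla markers (among them Crabp1, Corin and Notum), 11 were enriched in cluster 6, 10 in cluster 9 and 12 in cluster 16, and none was at 0 in any library. The label of the group therefore held, but different clusters made up most of it in the 2 genotypes: cluster 6 held 67.5% and 66.4% of control papilla-like cells and 29.2% and 26.4% of mutant ones. Fibroblast-like cells were 857 and 797 in control and 1416 and 1442 in mutant libraries, spread over 6 clusters, of which cluster 21, led by Gpc3 and Lrrc15, held 9 and 6 control and 330 and 273 mutant cells.

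On build GRCm38, in the GENCODE annotation, Inhba (ENSMUSG00000041324) lies on chromosome 13 from 16011851 to 16031621 on the plus strand and Fst (ENSMUSG00000021765) on chromosome 13 from 114452290 to 114458951 on the minus strand. Inhbb (ENSMUSG00000037035) lies on chromosome 1 from 119415465 to 119422248 (minus) and Fstl1 (ENSMUSG00000022816) on chromosome 16 from 37776873 to 37836514 (plus). Fstl3 (ENSMUSG00000020325) lies on chromosome 10 from 79777272 to 79782630, Acvr1b (ENSMUSG00000000532) on chromosome 15 from 101174067 to 101213684, Acvr2a (ENSMUSG00000052155) on chromosome 2 from 48814109 to 48903269 and Acvr2b (ENSMUSG00000061393) on chromosome 9 from 119402118 to 119434995, all on the plus strand. The antisense genes B230303A05Rik and Gm48444 overlap Inhba, Gm47040 overlaps Fst, Gm47320 overlaps Acvr2b, Prss57 overlaps Fstl3 and Orc4 overlaps Acvr2a, each on the opposite strand. Mir6962 overlaps Acvr1b on the same strand. Whether the counting used strand is not given in the sources used here, and whether reads from such partners entered the counts was not tested.

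The 250 bases before the annotated start of the 2 activin subunits are shown because the levels of these genes differed between genotypes in opposite directions in papilla-like cells. The sequences are RefSeq's for GRCm38.p6, read 5′ to 3′ on the gene's strand, with capitals marking a match to 1 of 4 motifs searched on both strands: GACCACCCA (the core bound by Gli factors), GTCTAGAC (the palindrome bound by Smad proteins), TATAAA and GGGCGG.
Inhba, chr13:16011601-16011850, plus strand: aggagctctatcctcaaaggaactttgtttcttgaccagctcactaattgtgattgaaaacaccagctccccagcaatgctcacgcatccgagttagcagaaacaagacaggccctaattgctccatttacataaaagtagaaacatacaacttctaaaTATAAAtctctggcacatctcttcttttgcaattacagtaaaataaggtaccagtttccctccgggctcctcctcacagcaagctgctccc
Inhbb, chr1:119422249-119422498, minus strand: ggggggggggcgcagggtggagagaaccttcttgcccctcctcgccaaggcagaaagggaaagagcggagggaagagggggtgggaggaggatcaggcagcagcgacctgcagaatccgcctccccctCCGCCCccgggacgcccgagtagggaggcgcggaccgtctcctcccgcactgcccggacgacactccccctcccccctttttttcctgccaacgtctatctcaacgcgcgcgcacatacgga
The windows differed in base composition. That of Inhba was 43.2% G or C with 3 CpG pairs, and that of Inhbb was 68% G or C with 21 CpG pairs, against medians of 52.4% and 6 over 32851 promoter windows of the same length. The Inhba window held TATAAA, found in 12.4% of all windows, starting 91 bases before the gene. The Inhbb window held GGGCGG on the opposite strand, found in 32.7% of all windows. Neither window held the Gli core (0.225% of all windows) or the Smad palindrome (0.167%), and neither motif was found in the windows of the other 5 genes that had an entry. Each of the windows shown held 1 match, so no matches overlapped.

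Inhba, the chain of activin A, was concentrated in papilla-like cells. Its level there was 1251 and 961 CPM in control replicates 1 and 2 and 1631 and 1823 CPM in mutant replicates 1 and 2. In every library this was above every other group without overlap. Papilla-like cells held 79.8% and 77.5% of all Inhba UMIs of the control libraries and 87.4% and 86.2% of those of the mutant libraries. The next group by mean was the macrophage or monocyte-like one, at 66.9 and 144 CPM in control and 4.14 and 45.9 CPM in mutant libraries, from 57 UMIs in all. Cluster 24, which held both dermal sheath and pericyte markers (Rgs5, Myh11), had 16.2 to 101 CPM, cluster 12, led by Fmod, Cck and Coch, had 28.8 to 66.5 CPM and fibroblast-like cells had 37.8 to 51.2 CPM. These groups overlapped one another. Cluster 12 is given as a comparison because its summed papilla markers reached 3422 to 3762 CPM against 3641 to 4522 CPM in papilla-like cells. The list it matched best was nevertheless that of fibroblasts, with 6 of 12 markers enriched. These 12 markers summed to 50.9% to 68.7% of their level in fibroblast-like cells. Rspo4, a papilla marker, was among its leading genes. The Inhba level of cluster 12 was 2.99% to 4.71% of that in papilla-like cells.

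Detection in single cells showed the same concentration. After each cell was thinned to 2000 UMIs, which left out 94 and 89 control and 66 and 80 mutant papilla-like cells, Inhba was detected in 49.7% (exact 95% interval 44.7 to 54.8) and 43.2% (38.5 to 48.0) of control papilla-like cells. In mutant libraries the share was 66.1% (63.3 to 68.7) and 70.7% (68.0 to 73.3). Among fibroblast-like cells it was detected in 44 of 828 and 55 of 774 control cells and in 79 of 1327 and 95 of 1389 mutant cells. For cluster 24 the counts were 3 of 99 and 1 of 104 control cells and 7 of 141 and 14 of 146 mutant cells. Basal keratinocyte-like cells, which had the lowest mean Inhba level of the 20 groups, gave 0.42% to 0.89%. Whether their UMIs came from the cells or from free RNA was not tested. Before thinning the cells kept had median depths of 5920 to 6140.5 UMIs in papilla-like and 11502 to 12760 UMIs in basal keratinocyte-like cells. Without thinning the papilla-like shares averaged 61.9% in control and 83.1% in mutant libraries. Intervals cover counting error only.

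Within the papilla-like group, cluster 9 carried most of the transcript. Inhba stood at 2188 and 1865 CPM in control and 2554 and 2924 CPM in mutant cells of cluster 9. Cluster 6, the Notum cluster, had 216 and 192 CPM in control and 479 and 480 CPM in mutant cells. Cluster 16, nearly absent from controls, had 1038 and 1052 CPM in mutant cells. Cluster 9 thus held 91.8% and 89.2% of papilla-like Inhba UMIs in control libraries, from 32.5% and 33.2% of the cells, and 73.2% and 75.2% in mutant libraries, where cluster 16 held 20.8% and 19.8%.

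Inhbb, the chain of activin B, had its own order of groups, which differed between genotypes. In control libraries papilla-like cells were highest at 63.2 and 68.2 CPM, above bulge follicle keratinocyte-like cells at 32.0 and 28.4 CPM and fibroblast-like cells at 19.1 and 18.5 CPM, with no overlap between these 3. In mutant libraries bulge follicle keratinocyte-like cells had the highest mean, at 30.4 and 24.9 CPM, overlapping melanocyte-like cells at 16.5 and 25.7 CPM, while papilla-like cells had 17.5 and 15.3 CPM. Upper follicle keratinocyte-like cells had 12.1 and 10.8 CPM in control and 18.7 and 19 CPM in mutant libraries. Melanocyte-like cells had 4.05 to 25.7 CPM from 39 UMIs. Every remaining group had a mean under 4 CPM. Within papilla-like cells the distribution was the reverse of that of Inhba: cluster 6 held 78.9% and 81.2% of control Inhbb UMIs, at 105 and 103 CPM, and cluster 9 had 25.4 and 27.5 CPM.

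**Figure D1:**
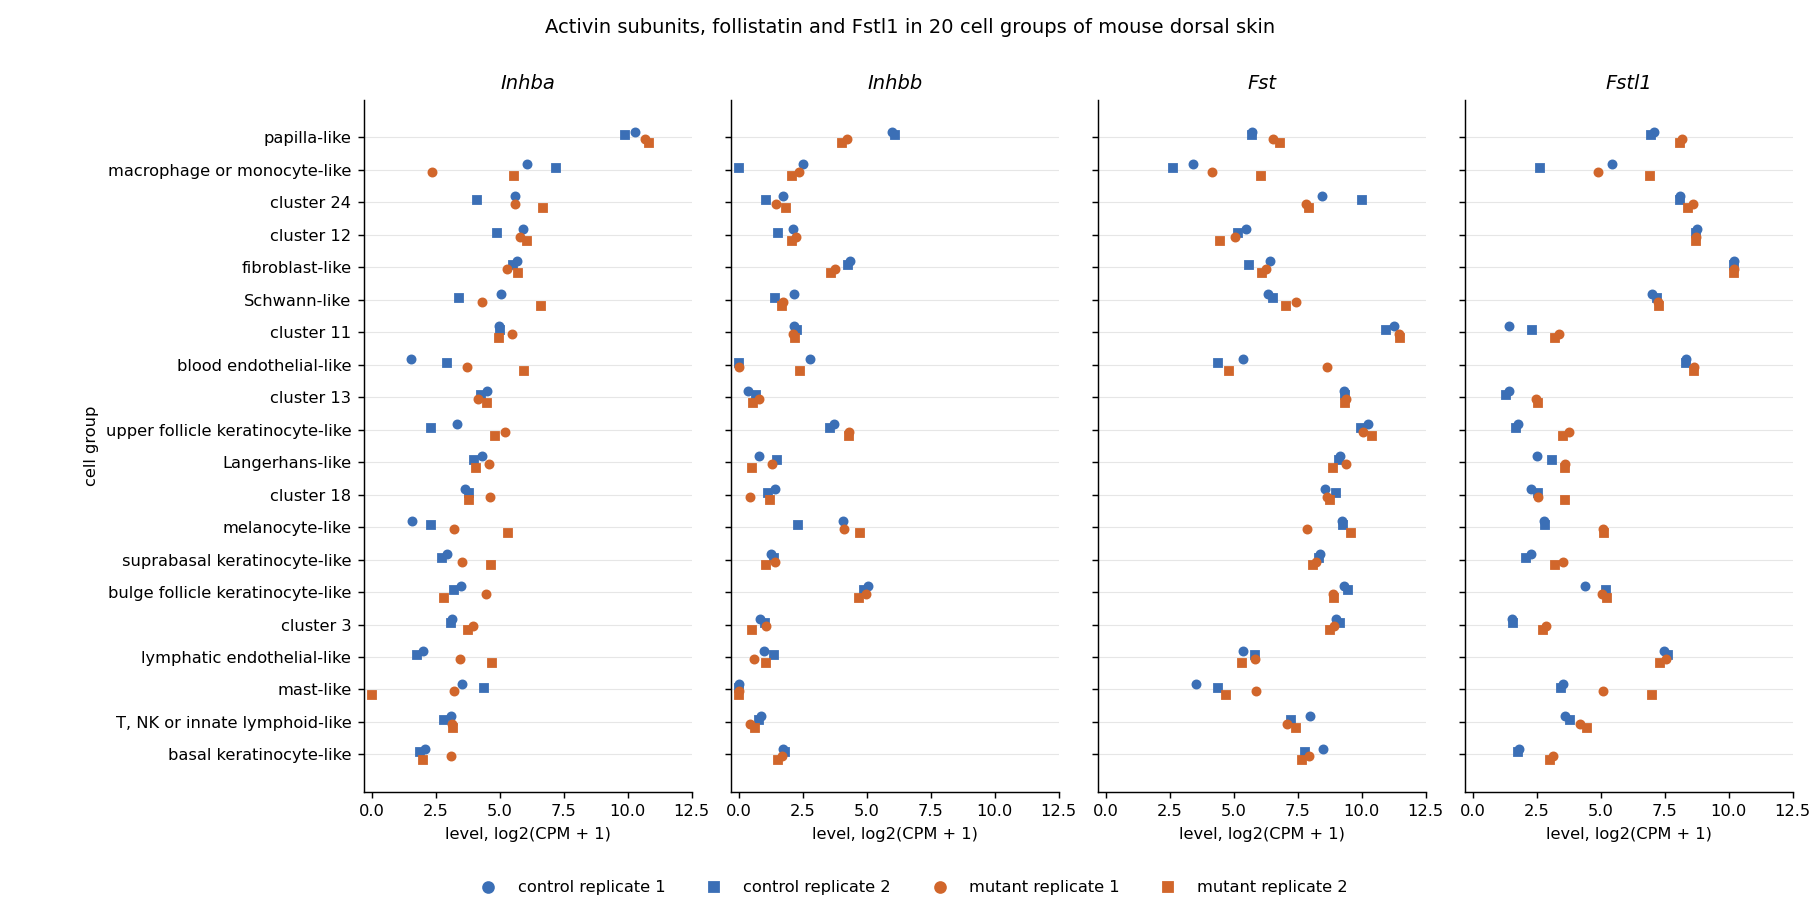
Levels of Inhba, Inhbb, Fst and Fstl1 as log2(CPM + 1) on the horizontal axes, in 20 cell groups on the vertical axis; each point is 1 library, blue for control and orange for mutant, circles for replicate 1 and squares for replicate 2. Inhba stands apart in papilla-like cells (961 to 1823 CPM), Fst is highest in cluster 11 (1958 to 2858 CPM) and Fstl1 in fibroblast-like cells (1180.4 to 1195 CPM).

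Fst, the activin-binding protein follistatin, was highest in groups rich in keratinocyte markers. Cluster 11, an unnamed cluster led by Vsnl1, Pthlh and Gata6 with Fst itself among its leading genes, had 2430.2 and 1958 CPM in control and 2846 and 2858 CPM in mutant libraries. Upper follicle keratinocyte-like cells followed at 1208, 1002, 1053 and 1337 CPM. Cluster 11 stood above every other group without overlap. Upper follicle keratinocyte-like cells stood above all lower groups except cluster 24, where control replicate 2 reached 1020.4 CPM and the other libraries 227 to 350 CPM. Cluster 13, led by Csf2, Nppb and Tslp, had 635 to 665 CPM, bulge follicle keratinocyte-like cells 466 to 714 CPM and cluster 3, led by Ch25h, 438 to 564 CPM. The bulge group overlapped each of the other two, which did not overlap one another. Clusters 3, 11 and 13 were left unnamed, and the 8 basal keratinocyte markers (Krt5 and Krt14 among them) summed to 10065 to 15002 CPM in them. Suprabasal and basal keratinocyte-like cells had 273 to 326 CPM and 200 to 358 CPM. After thinning to 2000 UMIs, Fst was detected in 69.6% and 71.3% of control and 71.8% and 74.7% of mutant cells of cluster 11. In upper follicle keratinocyte-like cells the share was 37.0% to 42.9%, and in basal keratinocyte-like cells it was 15% to 19.2%.

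Some groups that are not epithelial also gave Fst. Melanocyte-like cells had 594 and 612 CPM in control and 235 and 774 CPM in mutant libraries, Langerhans-like cells had 471 to 667 CPM, and the T, NK or innate lymphoid-like group had 133 to 251 CPM. In the main Langerhans-like cluster the median depth was 53656 UMIs, and the 8 basal keratinocyte markers summed to 10551 to 11679 CPM in Langerhans-like cells against 20266 to 21114 CPM in basal keratinocyte-like cells. Among the lymphoid-like clusters, cluster 33, with a median of 29840 UMIs, had Fst at 526 to 766 CPM and cluster 0, with a median of 4900.5 UMIs, had it at 20.7 to 30.7 CPM. Basal keratinocyte markers summed to 3933 to 4335 CPM in control and 2790 and 3914 CPM in mutant lymphoid-like cells. The part of keratinocyte RNA in these Fst levels was not tested.

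Fstl1 was a fibroblast transcript. Its level in fibroblast-like cells was 1195 and 1183 CPM in control and 1184 and 1180.4 CPM in mutant libraries, and these cells held 70.4% to 73.4% of all Fstl1 UMIs of each library. Cluster 12 was next at 418 to 433 CPM, and blood endothelial-like cells had 321 and 323 CPM in control and 401 and 402 CPM in mutant libraries. Each of these stood above the next group within a genotype. Papilla-like cells had 134 and 124 CPM in control and 288 and 274 CPM in mutant libraries. They overlapped lymphatic endothelial-like cells, at 157 to 198 CPM, over all libraries. Schwann-like cells had 126 to 152 CPM. In the named keratinocyte groups and clusters 3, 11 and 13 no library exceeded 37.3 CPM. Among fibroblast-like clusters the level was highest in cluster 5, led by Eln and holding Pi16, and lowest in clusters 19 and 32.

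Fstl3, another secreted activin-binding protein, was shared among the mesenchymal groups. Papilla-like cells had 55.5 and 63.4 CPM in control and 50.8 and 45.1 CPM in mutant libraries, and cluster 12 had 50.4, 47.9, 60.7 and 53.5 CPM, so that the order of these groups changed with genotype and they overlapped over all libraries. Fibroblast-like cells followed at 43.7 and 43.7 CPM in control and 36.0 and 37.4 CPM in mutant libraries. Cluster 24 had 17.1 to 30.3 CPM and bulge follicle keratinocyte-like cells 16.6 to 21.6 CPM. In the other named keratinocyte groups and clusters 3, 11 and 13 the mean was at most 9.12 CPM.

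The receptors each had their own order of groups. Acvr1b, the type I receptor, was highest in blood endothelial-like cells at 54.2 and 36.6 CPM in control and 27.8 and 40 CPM in mutant libraries, from 94 UMIs. Bulge follicle keratinocyte-like cells followed at 20.2 to 26.9 CPM and papilla-like cells had 8.81 to 9.98 CPM. Fibroblast-like cells had 2.41 to 3.77 CPM. Acvr2a, a type II receptor, was highest in T, NK or innate lymphoid-like cells at 57.3, 61.7, 70.3 and 64.3 CPM. It was next highest in bulge follicle keratinocyte-like cells at 46 to 53.0 CPM and then in upper follicle keratinocyte-like cells at 35.1 to 36.2 CPM, each above the following group by mean in all 4 libraries. Melanocyte-like cells overlapped the upper follicle group, with 37.6 CPM in control replicate 1. Papilla-like cells had 18.5 to 23.4 CPM and fibroblast-like cells 18.7 to 23.1 CPM of Acvr2a. Acvr2b, the other type II receptor, had a mean over 6 CPM only in melanocyte-like cells (8.1 to 23.7 CPM, 40 UMIs) and in papilla-like cells (12.2 and 15.1 CPM in control, 10.2 and 8.55 CPM in mutant libraries, 354 UMIs), and these overlapped. Acvr2b in papilla-like cells was above every other group without overlap, except mast-like cells, whose single UMI gave 10.6 CPM in control replicate 1.

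**Figure D2:**
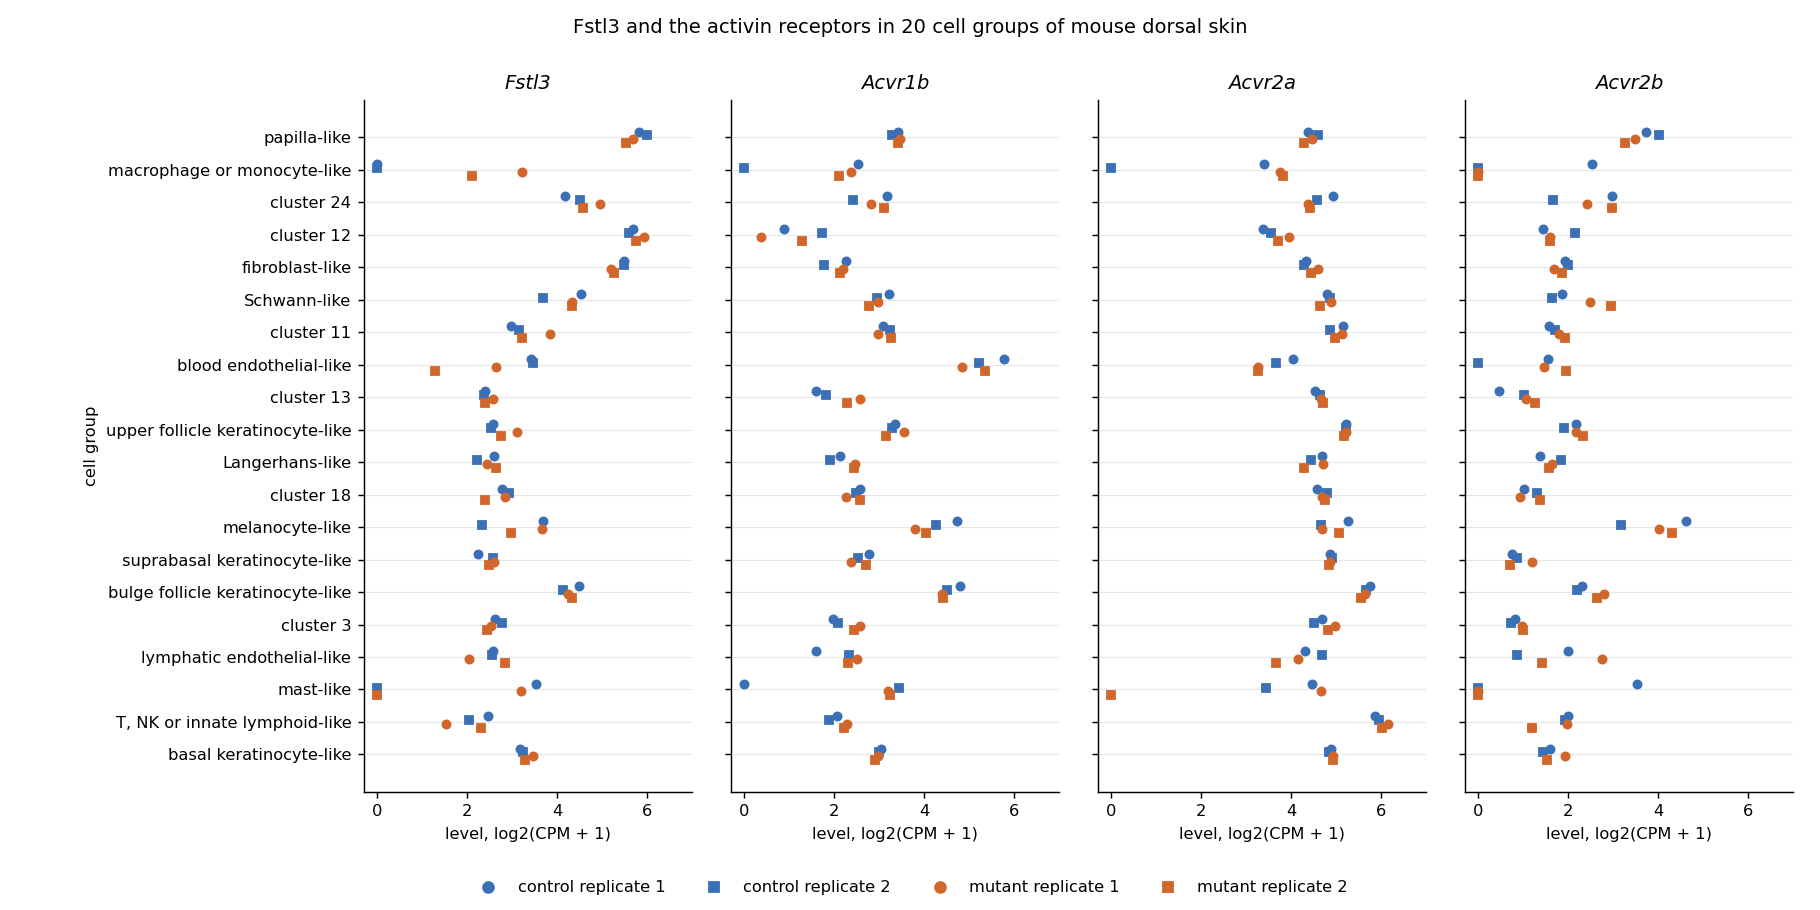
Levels of Fstl3, Acvr1b, Acvr2a and Acvr2b as log2(CPM + 1) on the horizontal axes, in the same 20 cell groups and order; each point is 1 library, coloured by genotype. Fstl3 is highest in papilla-like cells and cluster 12 (45.1 to 63.4 CPM), Acvr1b in blood endothelial-like cells (27.8 to 54.2 CPM), Acvr2a in T, NK or innate lymphoid-like cells (57.3 to 70.3 CPM) and Acvr2b in melanocyte-like and papilla-like cells (8.1 to 23.7 CPM).

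Genotypes were compared within each group on UMI counts summed per library, with edgeR's quasi-likelihood test over all genes that passed a filter on low counts. The rule for a call asked for an adjusted p (Benjamini-Hochberg, over all genes of the group) under 0.05 together with a log2 fold change, mutant over control, of 1 or more in either direction. The 8 genes gave 124 tests over the 20 groups, and 10 groups tested all 8. There were 12 calls, 11 higher and 1 lower in mutant libraries, in 8 groups, where 0.978% of the 194800 tests over all genes and groups were called higher and 0.445% lower. DESeq2 made 7 of these 12 calls, did not make 1 and gave no adjusted p for the other 4. Another 13 tests passed the adjusted p under the fold minimum, and 99 did not pass it. Over all genes and groups 7.72% of tests passed the adjusted p at any size of change. In the 12 groups without a call, 21 of 65 tests had an unadjusted p under 0.05 and DESeq2 called none. The share of all genes with an unadjusted p under 0.05 was not counted, so the 21 are not read as a result.

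In papilla-like cells Inhbb fell and Fstl1 and Fst rose in mutant libraries, and these were 3 calls among 8 genes where 5.8% of all 13287 genes tested were called, 4.12% higher and 1.68% lower. Over all genes tested the median log2 fold change was -0.004, and over the 8 genes it was 0.01. Inhba, Fstl3 and Acvr2b passed the adjusted p with changes under the fold minimum, and 27.4% of all genes passed the adjusted p at any size of change. Acvr1b (0.11 ± 0.17 SE on the log2 scale) and Acvr2a (-0.09 ± 0.13) did not pass it.

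Inhbb went from 63.2 and 68.2 CPM in control to 17.5 and 15.3 CPM in mutant papilla-like cells, with no overlap. The log2 fold change was -1.96 ± 0.10 (SE, n = 2 libraries against 2; edgeR quasi-likelihood test, adjusted p = 9.0e-10). The share of papilla-like cells in which it was detected, at 2000 UMIs per cell, was 12.2% and 12% in control and 3.26% and 3.48% in mutant libraries, against 0.284% to 0.833% of basal keratinocyte-like cells. Fitted on their own, an alternative chosen after seeing the data, cluster 6 gave -1.16 ± 0.12 (adjusted p = 3.8e-10), from 105 and 103 CPM to 44.0 and 45.1 CPM. Cluster 9 gave -1.31 ± 0.19 (adjusted p = 2.3e-04), from 25.4 and 27.5 CPM to 11.9 and 9.11 CPM. Cluster 16 had 8.94 and 7.52 CPM in mutant cells. The lower level was therefore seen within each of the clusters that both genotypes held, and without cluster 16 the group's value was -1.59 (adjusted p = 2.9e-09). Among all genes tested on their own cluster, 5.32% were called in cluster 6 and 3.83% in cluster 9.

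Fstl1 rose in papilla-like cells, from 134 and 124 CPM in control to 288 and 274 CPM in mutant libraries. The log2 fold change was 1.16 ± 0.07 (SE, n = 2 against 2; edgeR, adjusted p = 3.5e-09). Detection at 2000 UMIs per cell went from 21.4% and 19.1% to 37.5% and 38.8% of cells, against 0.568% to 1.85% of basal keratinocyte-like cells. In cluster 6 Fstl1 rose from 71.5 and 70.9 CPM to 142 and 141 CPM (1.05 ± 0.10, adjusted p = 1.8e-11). In cluster 9 it went from 191 and 186 CPM to 323 and 303 CPM, which passed the adjusted p under the fold minimum (0.76 ± 0.08, adjusted p = 3.9e-06). Cluster 16 had 331 and 308 CPM. Fibroblast markers moved with it: the summed level of the 12 markers in papilla-like cells, none at 0 in any library, was 1105 and 1195 CPM in control and 2390 and 2487 CPM in mutant libraries. That was 1.98% and 2.07% of their level in control fibroblast-like cells and 5.16% and 4.94% in mutant ones, while Fstl1 in papilla-like cells was at 11.2% and 10.5%, and at 24.3% and 23.2%, of its level in fibroblast-like cells. The part of fibroblast RNA in the change was not tested.

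Fst was at 51.3 and 51.5 CPM in control and 91.6 and 111 CPM in mutant papilla-like cells. The log2 fold change was 1.01 ± 0.10 (SE, n = 2 against 2; edgeR, adjusted p = 9.9e-07), at the fold minimum. Without mutant replicate 2 it was 0.87, at the finer clustering 0.98, with doublets kept 0.72 and without cluster 16 it was 0.66, each under the minimum with an adjusted p under 0.05. By cluster, Fst did not differ beyond the spread in cluster 6 (38.1 and 44.4 CPM in control, 38.1 and 39.2 CPM in mutant cells; -0.03 ± 0.15, adjusted p = 0.92). Cluster 9 had 63.3 and 59.7 CPM in control and 81.3 and 103 CPM in mutant cells (0.61 ± 0.12, adjusted p = 0.0026, under the fold minimum). Cluster 16, at 140 and 161 CPM, held 49.9% of papilla-like Fst UMIs in each mutant library. In control papilla-like cells Fst was detected in 8.16% and 6.67% of cells at 2000 UMIs, near the 6.41% and 7.07% of control lymphoid-like cells. In mutant libraries the shares were 12.3% and 14.3%, against 6.40% and 7.16% in lymphoid-like cells. Median depths before thinning were 5920 to 6140.5 UMIs in papilla-like and 4441.5 to 5000 UMIs in lymphoid-like cells. The summed basal keratinocyte markers in papilla-like cells were 766 and 830 CPM in control and 759 and 923 CPM in mutant libraries.

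Inhba was at 1251 and 961 CPM in control and 1631 and 1823 CPM in mutant papilla-like cells, without overlap. The log2 difference of 0.68 ± 0.09 (SE, n = 2 against 2; edgeR, adjusted p = 4.8e-05) was under the fold minimum, as were the values of 0.49 to 0.88 obtained when each library was left out. In cluster 6 alone Inhba rose from 216 and 192 CPM to 479 and 480 CPM (1.30 ± 0.08, adjusted p = 4.0e-17). Cluster 9, with a far higher level, gave 0.46 ± 0.08 (adjusted p = 9.9e-04, under the fold minimum). Fstl3 gave -0.27 ± 0.09 (adjusted p = 0.041) and Acvr2b -0.51 ± 0.17 (adjusted p = 0.037), both under the fold minimum. These adjusted p-values were 0.23 and 0.27 with DESeq2 and ranged from 0.0029 to 0.32 for Fstl3 and from 0.0063 to 0.23 for Acvr2b when each library was left out.

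**Figure D3:**
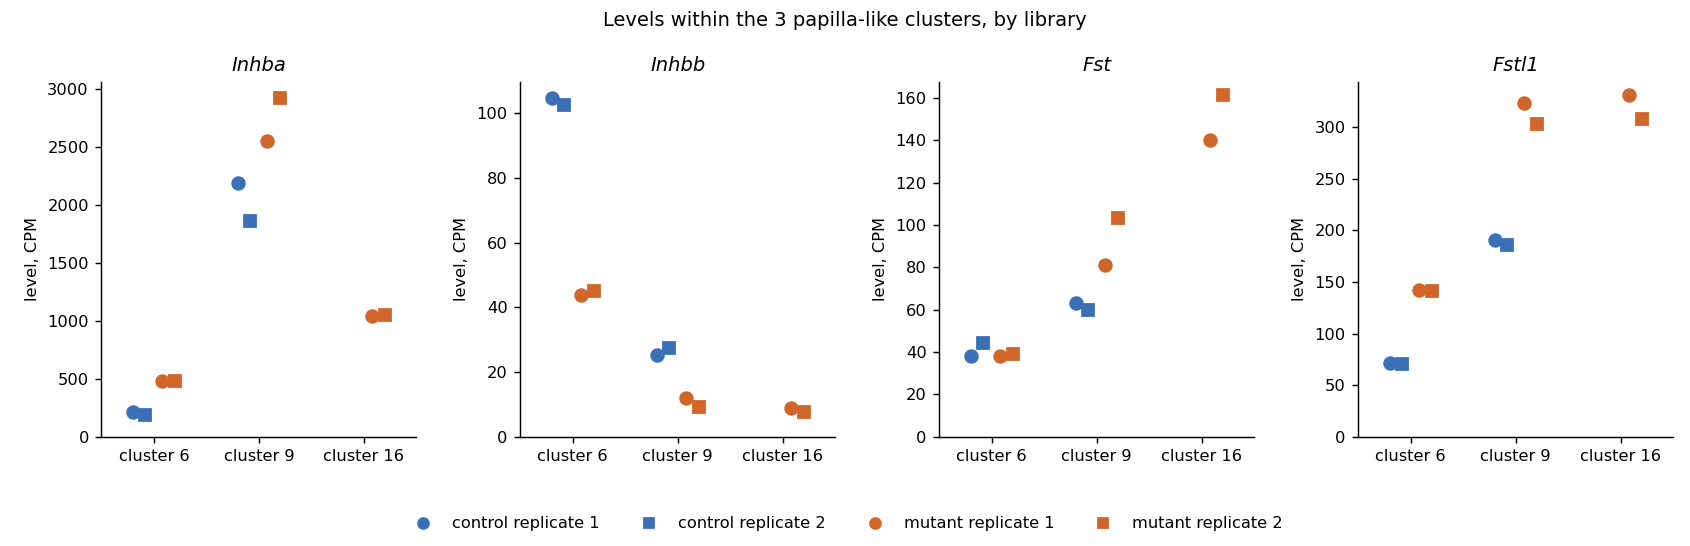
Levels in CPM (vertical axes, from 0) of Inhba, Inhbb, Fst and Fstl1 in the 3 papilla-like clusters; each point is 1 library with at least 20 cells in the cluster, blue for control and orange for mutant. Inhbb is lower and Fstl1 higher in mutant cells of clusters 6 and 9, Inhba is highest in cluster 9, and cluster 16 has points from mutant libraries only.

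In fibroblast-like cells no call was made among the 8 genes, where 2.28% of 13448 genes tested were called. With edgeR, 3 of the 8 had an unadjusted p under 0.05 (Inhbb, Fstl3 and Acvr2a), and DESeq2 called none. The share of all genes at that unadjusted p was not counted. Inhbb was at 19.1 and 18.5 CPM in control and 12.4 and 11.2 CPM in mutant libraries, without overlap (log2 difference -0.64 ± 0.12, adjusted p = 0.003, under the fold minimum, where 15% of all genes passed the adjusted p). Without cluster 21, which came almost only from mutant libraries and had Inhbb at 1.55 and 1.32 CPM, the value was -0.26 (adjusted p = 0.25). Clusters 15 and 5, where most of the transcript lay, gave -0.46 ± 0.20 (adjusted p = 0.21) and 0.17 ± 0.19 (adjusted p = 0.81). Fstl1 did not differ beyond the spread (0.02 ± 0.04, adjusted p = 0.73), nor did Fst (0.18 ± 0.17, adjusted p = 0.56).

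Inhba in fibroblast-like cells was at 50.1 and 44.5 CPM in control and 37.8 and 51.2 CPM in mutant libraries, which overlapped (-0.06 ± 0.13, adjusted p = 0.82). This group value covered clusters that differed. Cluster 20, led by Tnn, Mmp11 and Acan and also holding 7 of 10 dermal sheath markers, had 237 and 90.4 CPM in control and 178 and 255 CPM in mutant libraries. Cluster 19, led by Cxcl5 and Sfrp5, fell from 78.6 and 208 CPM to 39.5 and 58.1 CPM (-1.73 ± 0.32, adjusted p = 0.0057), where 4.03% of genes were called. Cluster 15, led by Cpz and C3, rose from 16.6 and 17.2 CPM to 25.9 and 40.1 CPM (1.00 ± 0.23, adjusted p = 0.021), where 1.76% of genes were called. The result for Inhba in fibroblast-like cells depended on how they were gated: with a gate on markers per cell in place of clusters the value was 1.35 (adjusted p = 9.6e-05).

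The genotype effect in papilla-like cells was compared with that in fibroblast-like cells of the same libraries, in 1 edgeR fit with the library as a block, in which 4.99% of 14101 genes were called. For Inhbb the papilla-like effect was lower than the fibroblast-like effect by a log2 value of -1.30 ± 0.15 (adjusted p = 1.5e-05). For Fstl1 it was higher by 1.15 ± 0.08 (adjusted p = 4.6e-08). These were the 2 calls among the 8 genes, and both were called with each library left out, at the coarser and finer clustering and without the clusters held by 1 genotype. Inhba (0.76 ± 0.11, adjusted p = 1.4e-04) and Fst (0.83 ± 0.19, adjusted p = 0.0064) passed the adjusted p under the fold minimum. The Fst difference was 0.39 (adjusted p = 0.25) without control replicate 1, 1.19 without control replicate 2 and 0.17 (adjusted p = 0.62) without the clusters held by 1 genotype. Fstl3, Acvr1b, Acvr2a and Acvr2b did not pass, at -0.03 ± 0.12, -0.08 ± 0.31, -0.32 ± 0.16 and -0.27 ± 0.32.

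**Figure D4:**
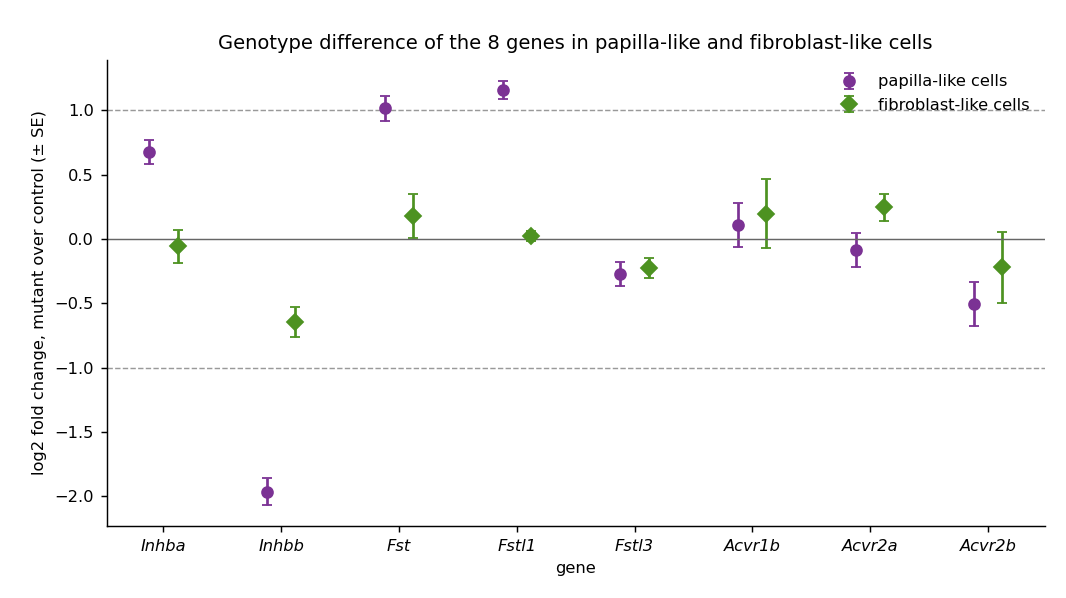
Log2 fold change, mutant over control (vertical axis), of the 8 genes in papilla-like cells (purple circles) and fibroblast-like cells (green diamonds); bars are the standard error of the edgeR fit over 2 libraries against 2, and dashed lines mark the fold minimum of 1 in either direction. Inhbb (-1.96) and Fstl1 (1.16) in papilla-like cells lie beyond the lines, Fst (1.01) lies on the upper one, and all 8 values in fibroblast-like cells lie between them.

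Outside papilla-like cells the calls were at low levels. Fstl1 was called higher in 6 groups: basal (2.46 and 2.39 CPM in control, 7.9 and 7.21 CPM in mutant libraries), suprabasal and upper follicle keratinocyte-like cells and clusters 3, 11 and 13. All 6 had control levels of 1.5 to 3.96 CPM and mutant levels of 4.57 to 12.7 CPM without overlap, and log2 fold changes of 1.38 to 2.28. In these groups 1.09%, 1.59%, 0.21%, 1.09%, 0.345% and 1.09% of all genes were called higher, in the order named. DESeq2 also called Fstl1 in suprabasal and upper follicle keratinocyte-like cells and cluster 3, and gave no adjusted p for it in basal keratinocyte-like cells and clusters 11 and 13. In upper follicle keratinocyte-like cells the call was lost with doublets kept (1.55, adjusted p = 0.088) and with the gate on markers (0.51, adjusted p = 0.61), and in suprabasal keratinocyte-like cells with the gate (0.70, adjusted p = 0.052). The mutant levels were 0.386% to 1.07% of those in fibroblast-like cells. The 12 fibroblast markers also rose in these groups. They went from 0.229% to 0.524% of their fibroblast-like level in control libraries to 0.528% to 1.02% in mutant libraries. The sizes of the rises differed by group. In upper follicle keratinocyte-like cells Fstl1 went from 0.202% and 0.186% to 1.07% and 0.905%, and the markers from 0.229% and 0.255% to 0.528% and 0.59%. In suprabasal keratinocyte-like cells Fstl1 went from 0.322% and 0.27% to 0.88% and 0.694%, and the markers from 0.251% and 0.28% to 0.959% and 0.551%. The part of free fibroblast RNA in these calls was not tested. Under the fold minimum, Fstl1 also passed the adjusted p as higher in T, NK or innate lymphoid-like cells (0.62 ± 0.15, edgeR, adjusted p = 0.0082). The same held in Langerhans-like cells (0.81 ± 0.20, edgeR, adjusted p = 0.039). In these groups 17.5% and 4.93% of all genes passed the adjusted p, in the order named.

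**Figure D5:**
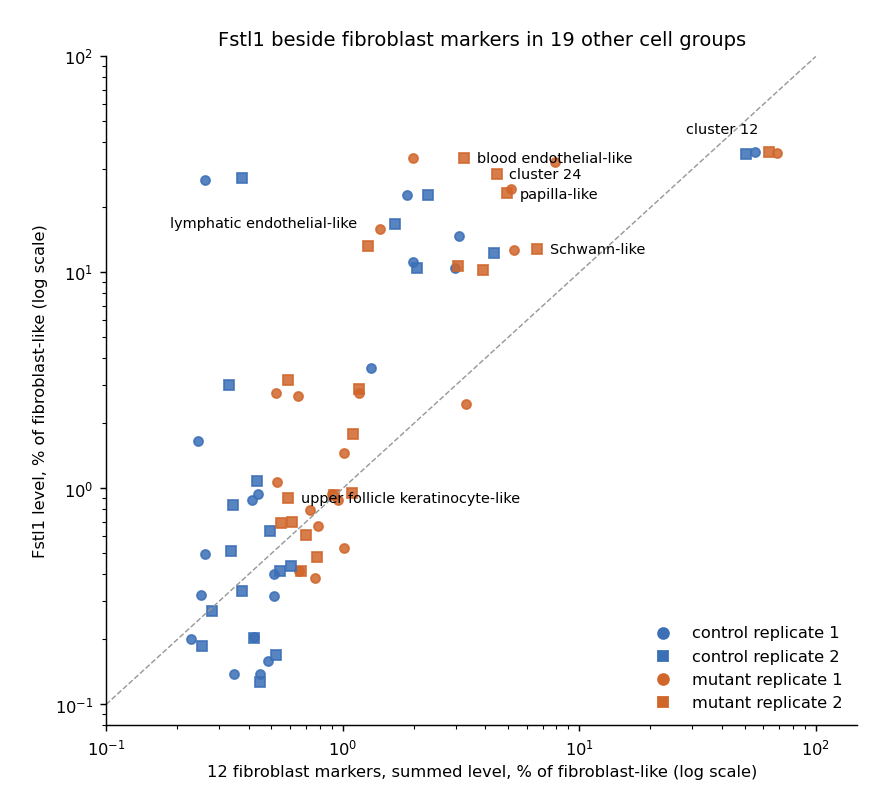
Fstl1 level (vertical axis) against the summed level of 12 fibroblast markers (horizontal axis), both as percent of their level in fibroblast-like cells of the same library and on log scales, in the 19 other cell groups; each point is 1 library of 1 group, coloured by genotype, and the dashed line marks equal percentages. The 6 groups in which Fstl1 was called outside papilla-like cells lie at or under 1.07% of the fibroblast-like Fstl1 level, while papilla-like cells (10.5% to 24.3%), endothelial groups, Schwann-like cells and cluster 24 lie above it.

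Inhba was called higher in lymphatic endothelial-like cells (3 and 2.41 CPM in control, 9.91 and 25.2 CPM in mutant libraries, 70 UMIs; 0.362% of genes called higher there). It was also called in suprabasal keratinocyte-like cells (6.78 and 5.73 CPM, 10.6 and 24.6 CPM) and in upper follicle keratinocyte-like cells (9 and 4.02 CPM, 35.9 and 27.3 CPM). The log2 fold changes were 2.70 ± 0.59, 1.48 ± 0.29 and 2.20 ± 0.29. Without mutant replicate 2 the call was lost in lymphatic endothelial-like cells (1.90, adjusted p = 0.38) and in suprabasal keratinocyte-like cells (0.74, adjusted p = 5.6e-04, under the fold minimum). DESeq2 gave no adjusted p for it in lymphatic endothelial-like cells. The call was also lost in lymphatic endothelial-like cells with doublets kept (1.24, adjusted p = 0.43), in suprabasal keratinocyte-like cells with DESeq2 (1.47, adjusted p = 0.19) and in upper follicle keratinocyte-like cells at the coarser clustering (0.83) and with the gate on markers (1.59, adjusted p = 0.17). At 2000 UMIs Inhba was detected in at most 1.22% of lymphatic endothelial-like cells, against 0.42% to 0.89% in basal keratinocyte-like cells. The 14 papilla markers summed to 137 to 209 CPM in lymphatic endothelial-like cells. They summed to 24.6 to 49.0 CPM in suprabasal and to 57.6 to 115 CPM in upper follicle keratinocyte-like cells. As percent of their papilla-like level, they were at 3.93% and 3.71% in control and 4.69% and 3.03% in mutant lymphatic endothelial-like cells. In suprabasal keratinocyte-like cells they were at 0.675% and 0.872% in control and 1.1% and 1.07% in mutant libraries. In upper follicle keratinocyte-like cells they were at 1.71% and 1.53%, and at 1.398% and 2.55%. Only in suprabasal keratinocyte-like cells did the genotypes not overlap. The part of papilla RNA in these calls was not tested.

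In 5 groups rich in keratinocyte markers Fst passed the adjusted p with differences under the fold minimum. Bulge follicle keratinocyte-like cells had 635 and 714 CPM in control and 466 and 485 CPM in mutant libraries (-0.52 ± 0.09, adjusted p = 0.0012). Cluster 11 gave 0.37 ± 0.08 (adjusted p = 0.018), basal keratinocyte-like cells -0.39 ± 0.11 (adjusted p = 0.028), cluster 3 -0.26 ± 0.05 (adjusted p = 0.0037) and suprabasal keratinocyte-like cells -0.20 ± 0.04 (adjusted p = 0.0068). In basal keratinocyte-like cells the libraries overlapped (358 and 221 CPM in control, 246 and 200.4 CPM in mutant libraries), and without control replicate 1 the value was 0.001 (adjusted p = 0.996). With DESeq2 the adjusted p was 0.72 in basal keratinocyte-like cells and 0.28 in cluster 11, and without control replicate 1 it was 0.051 in suprabasal keratinocyte-like cells. The adjusted p was passed by 6.53%, 2.36%, 10.7%, 9.99% and 10% of all genes in these groups, in the order named. Whether the effects differ between these groups was not tested.

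Other genes of the pathway were read from a list of 39 ligands, receptors, antagonists, transducers and response genes. In papilla-like cells 29 were tested, of which 1 was called higher and 1 lower, 3 and 4 more passed the adjusted p in each direction under the fold minimum, and the median log2 fold change was 0.00 (all genes, -0.004). Of all genes in these cells 4.12% were called higher and 1.68% lower, and 27.4% passed the adjusted p. The gene called lower was Inha, the alpha subunit of the inhibins, at 3.37 and 4.49 CPM in control and 2.02 and 1.69 CPM in mutant libraries (-1.04 ± 0.31, adjusted p = 0.021). The gene called higher was Fstl4, another follistatin-like gene, at 0.32 and 0.33 CPM (2 UMIs each) in control and 1.81 and 2.19 CPM in mutant libraries (2.59 ± 0.54, adjusted p = 0.0021). In fibroblast-like cells 27 were tested, 7 of which passed the adjusted p as lower values under the fold minimum (15% of all genes passed it in either direction), among them Ctgf, a matrix protein induced by this pathway (-0.61 ± 0.10, adjusted p = 0.0013), and the median was -0.15. Ctgf in papilla-like cells was at 20.5 and 21.6 CPM in control and 35.2 and 34.4 CPM in mutant libraries (0.76 ± 0.11, adjusted p = 6.4e-05, under the fold minimum).

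Elsewhere 2 genes of the list were called, in 3 groups. Pmepa1, a feedback inhibitor of Smad signalling, fell in bulge follicle keratinocyte-like cells from 462 and 509.8 CPM to 265 and 195 CPM (-1.09 ± 0.11, adjusted p = 1.1e-05), where 23 of the 39 were tested and 0.588% of all genes were called lower. Ctgf rose in cluster 13 from 1.12 and 1.09 CPM to 9.29 and 4.98 CPM (2.65 ± 0.31, adjusted p = 1.4e-05) and in cluster 24 from 11.4 and 9.74 CPM to 40.7 and 28.9 CPM (1.73 ± 0.34, adjusted p = 0.0499), where 0.334% of all genes were called higher. In cluster 24 no gene was called without control replicate 1 or without control replicate 2, against 74 genes with all libraries. The listed genes with the highest levels summed over groups were the cell cycle inhibitor Cdkn1a, the repressor Tgif1 and Pmepa1. Cdkn1a in suprabasal keratinocyte-like cells was at 1404, 1407, 1374 and 1401 CPM, and Tgif1 in cluster 11 was at 358, 330.2, 377 and 363 CPM.

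Genes with the pattern most like each subunit or binding protein were ranked by Pearson correlation of log2(CPM + 1) over 80 sums (20 groups in 4 libraries), as a description, since the sums share libraries. For Inhba the closest included Pappa2 (0.75), Dpp4, Plekhh2 and Fgf10 (0.73), all highest in papilla-like cells. For Inhbb they were Borcs5 (0.79), Pik3r2, Pappa, Tfap4 and Ccne1 (0.76), highest in bulge follicle keratinocyte-like or papilla-like cells. Fst was closest to Krt17 (0.90), a keratin of the follicle epithelium, followed by Pawr, Epcam, Chmp4c and Usp43. Fstl1 was closest to the matrix genes Bgn (0.96) and Fbn1 (0.94), then Serping1, Col5a2 and C1ra. Fstl3 was closest to Sdc2 (0.85), Ndrg4, Brsk1, Numbl and Irak1bp1. Pappa2, Dpp4, Krt17, Epcam and Fbn1 are also marker genes of the lists used to name groups. Krt17 is on the upper follicle keratinocyte list. Dpp4 is on the fibroblast list, although its highest mean was in papilla-like cells (69.2 CPM).

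In single papilla-like cells at 2000 UMIs, Fst was detected in 7.69% and 5.85% of control cells with an Inhba UMI and in 8.63% and 7.29% of those without. In mutant libraries it was detected in 12% and 13.9% of cells with and 12.8% and 15.4% of cells without an Inhba UMI. Inhbb was detected in 10.8% and 9.04% of control cells with and 13.7% and 14.2% of control cells without an Inhba UMI. Fstl1 was detected in 24.1% and 24.5% of control cells with and 18.8% and 15% of those without. In mutant libraries the Fstl1 shares were 39.1% and 39.0% of cells with and 34.2% and 38.3% of cells without an Inhba UMI, and the Inhbb shares were 2.91% and 2.88% with and 3.94% and 4.93% without. Cells are not replicates, and no test was made on these shares.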

How the data were processed

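The 4 unsorted libraries were analysed from the raw UMI count matrices that the authors deposited, made with Cell Ranger 3.1.0 per the file headers. The submitters' processing notes also name Scanpy 1.6.0, Seurat 3.2.2, Cell Ranger 2.1.1 and, as builds, GRCm38 and mm10. A sorted library was not used here. The 8 genes, the pathway list and the marker lists were chosen with earlier results of these data known. Other named genes are pathway genes called in a group, the 3 pathway genes with the highest summed CPM and the 5 genes most alike to each subunit and binding protein, of which some items are not reported here.

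Cells with 500 to 8000 genes and at most 10% mitochondrial UMIs were kept (scanpy 1.11.5, python 3.11.15). Doublets were removed at a scrublet score of 0.25, a threshold chosen after seeing the data because the automatic ones differed between libraries. Cells were clustered on 2000 variable genes without the 8 genes, the pathway list and the reporter and Hedgehog genes (40 components, 15 neighbours, Leiden resolution 1.4, leidenalg 0.10.2). A cluster was named where at least 3 markers of 1 list were enriched. The name was withheld where leading genes belonged to another list, or where depth was low and no leading gene was a marker. Thus cluster 12, with 6 of 12 fibroblast markers enriched, and cluster 24, with 8 of 10 dermal sheath markers enriched, stayed unnamed. Libraries held 147245343 to 171197845 UMIs.

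Counts were summed per library and group and tested with edgeR 4.0.16 (TMM scaling, quasi-likelihood, Benjamini-Hochberg adjustment, R 4.3.3). The alternatives were DESeq2 1.42.0, no low count filter, a replicate block, leaving out each library, Leiden resolutions 0.6 and 2.0, a marker gate per cell, doublets kept, a 20% mitochondrial limit, adjustment over all groups and omission of clusters with over 95% of cells from 1 genotype. Fits of single clusters were added after seeing the data. On simulated counts for papilla-like cells, 96.9% of genes with a true log2 change of 1.5 and 95.9% of those with 2.0 were called, with 0 false calls. The simulation gave every gene the same dispersion and changed none by an amount near the fold minimum. Differences in clustering or free RNA were not simulated. These rates therefore do not cover such differences, or calls near the minimum such as Fst in papilla-like cells.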

Additional observations from a re-analysis of the deposited data

Results flagged for a closer look

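The genotype effect on Inhbb differed between papilla-like and fibroblast-like cells of the same libraries: the log2 difference between the effects was -1.303 ± 0.15 (SE, n = 2 libraries of each genotype; edgeR quasi-likelihood test with the library as a block, adjusted p = 1.5e-05). Inhbb was lower in mutant papilla-like cells of both libraries. The effect on Fstl1 differed in the other direction, by 1.152 ± 0.08 (adjusted p = 4.6e-08), with Fstl1 higher in mutant papilla-like cells of both libraries and a change in fibroblast-like cells (0.02) that did not pass the test. Each was picked out because the difference between the effects was itself tested and called.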

How the results depend on the processing

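In papilla-like cells the number of the 8 genes called was 3, against 6 by adjusted p alone, and 2 to 3 when each library was left out. In fibroblast-like cells it was 0, against 1 by adjusted p alone and 1 with a marker gate per cell, and 0 with any library left out. Over all genes in papilla-like cells, 3637 were called by adjusted p alone and 415 with the marker gate, against 770, and 713 to 826 with a library left out. In fibroblast-like cells 178 were called by DESeq2, 204 without the low count filter and 2021 by adjusted p alone, against 307, and 293 to 422 with a library left out. In the comparison of the effects 584 to 738 genes and 2 to 3 of the 8 were called with a library left out. Inhba in fibroblast-like cells went from -0.06, which did not pass the test, to 1.35 with the marker gate, and the cause was not tested. Mean Fst in upper follicle keratinocyte-like cells (1150.1 CPM) was 1802 at Leiden resolution 0.6 and 901 with the gate, and mean Fstl1 in fibroblast-like cells was 1201 at resolution 0.6, 1092 with the gate, 1083 with doublets kept and 1201 at the 20% mitochondrial limit. The share of papilla-like cells with Inhba rose with depth, from 31.0% in control and 50.6% in mutant libraries at 1000 UMIs to 65.7% and 85.2% at 4000, and was 61.9% and 83.1% without thinning. Replicate numbers are technical and were not taken to pair libraries. Same-numbered deviations correlated at 0.03 in papilla-like and 0.18 in fibroblast-like cells. Over the 20 groups the values ran from -0.26 in T, NK or innate lymphoid-like to 0.56 in Langerhans-like cells. The replicate block gave 802 genes called in papilla-like and 315 in fibroblast-like cells, with 3 and 0 of the 8. DESeq2 gave no adjusted p for 42 of 124 tests. The alternatives held 16 of the 20 groups at resolution 0.6, 19 with doublets kept, 17 at the 20% limit and 11 with the gate. Depth limits groups such as mast-like and macrophage or monocyte-like cells, where several of the 8 genes had under 10 UMIs.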
